A study of Mus musculus with 10 samples.

Results

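The nuclear factor I (NFI) genes Nfia, Nfib, Nfic and Nfix were described in mouse retina with and without the zinc finger transcription factor Casz1. All 4 family members were taken by name, each with a window of its gene body plus 50 kb either side, and they are 4 of 21631 protein-coding genes on chromosomes 1 to 19 and X. NFI proteins bind DNA as dimers at the palindrome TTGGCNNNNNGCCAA, and a single arm, TTGGC, is a weaker site. In the retina Nfia, Nfib and Nfix act in late progenitors, where they promote exit from the cell cycle and the bipolar and Müller glia fates, and NFI factors also drive astrocyte formation elsewhere in the nervous system. H3K27ac marks active promoters and enhancers, and H3K27me3 is the mark of Polycomb repression.

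Control samples were labelled wild type, knockout samples Casz1 conditional knockout (cKO), and all were C57BL/6. Open chromatin was mapped by ATAC-seq, which inserts adapters into accessible DNA with a transposase, in 2 control and 2 cKO libraries: retina of postnatal day 2 was kept as explants for 2 days after transfection with a GFP plasmid (control) or with GFP and Cre (cKO), and 50000 live GFP-positive cells were sorted per library. ChIP-seq for each histone mark was done in 1 control and 1 cKO library at postnatal day 0, and the cKO tissue was peripheral retina picked by its fluorescence. For the histone marks, region of the retina and genotype therefore cannot be told apart if the control tissue was not also peripheral. The Cre driver of that tissue and the deleted part of Casz1 are not stated in the labels.

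The data are positions of called peaks, without heights or read counts, so the depth of each library is unknown. The ATAC lists differed in length, from 40435 peaks in control 1 and 60824 in cKO 2 to 93767 in cKO 1 and 110741 in control 2. The long and the short lists thus crossed the genotypes, and every ATAC value is given by library. All 7 regulators of neural retina examined (Rax, Pax6, Six3, Six6, Crx, Otx2 and Neurod1) had an H3K27ac peak within 1 kb of a gene end in both genotypes. Of 5 retinal astrocyte markers, 2 had such a peak in control and 3 in cKO, with 16282 and 16131 bases of H3K27ac over the 5 windows. The counts were 3 and 2 of 6 for vessel genes, 2 and 0 of 5 for microglia, and 2 and 2 of 5 for pigment epithelium. Liver and muscle genes, which retina should lack, also had 2 and 2 of 5, and of all genes 61.4% had such a peak in each list. These counts therefore do not show whether those cells were present, and their part in the NFI values was not tested. In a tissue of several cell types fewer cells with a mark and less of it per cell cannot be told apart.

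The 4 genes differ in length and setting (mm10). Nfia (chromosome 4, 97578066 to 98118876) spans 540811 bp and Nfib (chromosome 4, 82290173 to 82506751) 216579 bp, and neither window holds another protein-coding gene. Nfix (chromosome 8, 84704712 to 84801238) spans 96527 bp and Nfic (chromosome 10, 81396191 to 81431919) 35729 bp. The Nfix window reaches 8 other genes, among them Lyl1, Dand5, Calr and Ier2, and the Nfic window also 8, among them Celf5, Fzr1, Mfsd12 and Hmg20b.

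The listed start sites of Nfia, Nfic and Nfix differed in the peaks that lay over them, and Nfib has no listed entry. The RefSeq promoter table (GRCm38.p6, the assembly called mm10) holds 6 NFI entries: 1 for Nfia, 1 for Nfic and 4 for Nfix, each inside its gene body. Those printed are the Nfia and Nfic entries and the pair of Nfix entries with all 300 bases around the start under H3K27ac in control, each as the 250 bases before the start, 5′ to 3′, with capitals for TTGGC or its reverse complement GCCAA. They lie at chr4:97581693-97581942 (Nfia, plus strand), chr10:81427174-81427423 (Nfic, minus strand), chr8:84780083-84780332 and chr8:84775829-84776078 (Nfix, minus strand).
Nfia: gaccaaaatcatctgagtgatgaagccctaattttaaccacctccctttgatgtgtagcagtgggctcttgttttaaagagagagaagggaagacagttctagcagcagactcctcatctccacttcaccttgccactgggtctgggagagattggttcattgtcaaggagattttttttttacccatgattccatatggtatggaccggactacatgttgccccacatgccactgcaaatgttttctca
Nfic: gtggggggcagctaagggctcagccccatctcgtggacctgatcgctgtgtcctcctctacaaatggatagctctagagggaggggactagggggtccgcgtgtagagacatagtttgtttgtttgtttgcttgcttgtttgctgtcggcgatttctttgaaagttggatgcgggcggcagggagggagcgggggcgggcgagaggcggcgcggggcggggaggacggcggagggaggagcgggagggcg
Nfix upstream: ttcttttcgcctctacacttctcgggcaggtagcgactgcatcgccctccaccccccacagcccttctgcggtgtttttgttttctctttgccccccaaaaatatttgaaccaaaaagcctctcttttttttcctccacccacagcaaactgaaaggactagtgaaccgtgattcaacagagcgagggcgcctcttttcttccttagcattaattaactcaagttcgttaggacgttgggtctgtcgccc
Nfix downstream: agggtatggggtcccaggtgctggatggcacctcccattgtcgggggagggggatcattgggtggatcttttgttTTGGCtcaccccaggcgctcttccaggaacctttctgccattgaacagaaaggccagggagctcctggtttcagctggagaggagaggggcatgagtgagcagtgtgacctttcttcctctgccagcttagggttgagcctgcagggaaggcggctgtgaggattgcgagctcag

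The Nfia entry, which lies inside the gene body, carried the active mark in both genotypes. Counting 300 bases, from 250 before to 50 after the start, H3K27ac peaks covered all 300 in control and in cKO, and H3K27me3 peaks covered none. ATAC peaks covered 0 and 246 of those bases in control 1 and 2, and 230 and 0 in cKO 1 and 2. The short lists of both genotypes thus lacked a peak over these bases and the long lists had it.

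The Nfic entry showed the opposite marks, with H3K27me3 over all 300 bases in both genotypes and neither H3K27ac nor an ATAC peak in any list. It is rich in CpG (19 in 250 bases, more than 80.3% of RefSeq promoters) and lies inside the gene, while the upper-coordinate end of Nfic carried ATAC peaks in all 4 lists and H3K27ac in both.

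The upstream Nfix entry carried both marks. H3K27ac and H3K27me3 each covered 300 of 300 bases in control and in cKO, and ATAC peaks covered 0 and 300 bases in control 1 and 2 and 300 and 140 in cKO 1 and 2. At the downstream Nfix entry H3K27me3 again covered all 300 bases in both genotypes, H3K27ac covered 300 in control and 195 in cKO, and no ATAC list had a peak. The other 2 Nfix entries lay fully under H3K27me3 in both genotypes, with 102 and 269 bases of H3K27ac at the first and none at the other. All Nfix entries lie within the same control H3K27me3 peak of 78053 bp, so they are not separate observations. Of 32619 promoter windows, 15.7% met an H3K27me3 peak in control and 15.4% in cKO. For H3K27ac the shares were 45.1% and 44.5%, and for ATAC they ran from 37.3% in control 1 to 49.4% in control 2.

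The motif of the NFI proteins themselves was at a share near that of other promoters. TTGGC, searched on both strands, occurred in 2 of the 6 NFI entries, 1 match each, and in 41.5% of 32851 RefSeq promoters of 250 bases. The full palindrome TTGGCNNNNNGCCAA, which contains both arms, was in none of the 6 and in 0.0365% of all promoters.

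Nfix stood out for the width of its H3K27me3. In control, H3K27me3 covered 50.9% of its window and 87.0% of its body, and in cKO 49.9% and 85.7%. A single control peak of 78053 bp (chromosome 8, 84732242 to 84810294) ran over most of the gene and past its upper end, the 11th widest of 92652 peaks in that list. In cKO the same stretch held peaks of 13799 bp and 63926 bp with 308 bp of uncovered sequence in it, and the wider was the 17th of 89523. The covered part of the stretch was 99.6% in cKO.

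ATAC peaks also fell within the stretch of this Polycomb domain, although they came from other samples. The marks were mapped in retina of postnatal day 0, and ATAC in sorted cells of day 2 explants kept 2 days. Whether the domain was open in the same cells therefore cannot be told. The domain held 24 ATAC regions, of which 4 were called in all 4 lists, and ATAC peaks covered 870 and 9795 of its bases in control 1 and 2 and 7491 and 3123 in cKO 1 and 2. H3K27ac peaks covered 14.7% of it in control and 13.5% in cKO. The widest H3K27ac peak at Nfix, 7382 bp in control (84725023 to 84732404) and 6513 bp in cKO (84725599 to 84732111), ended at the lower edge of the domain.

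**Figure D1:**
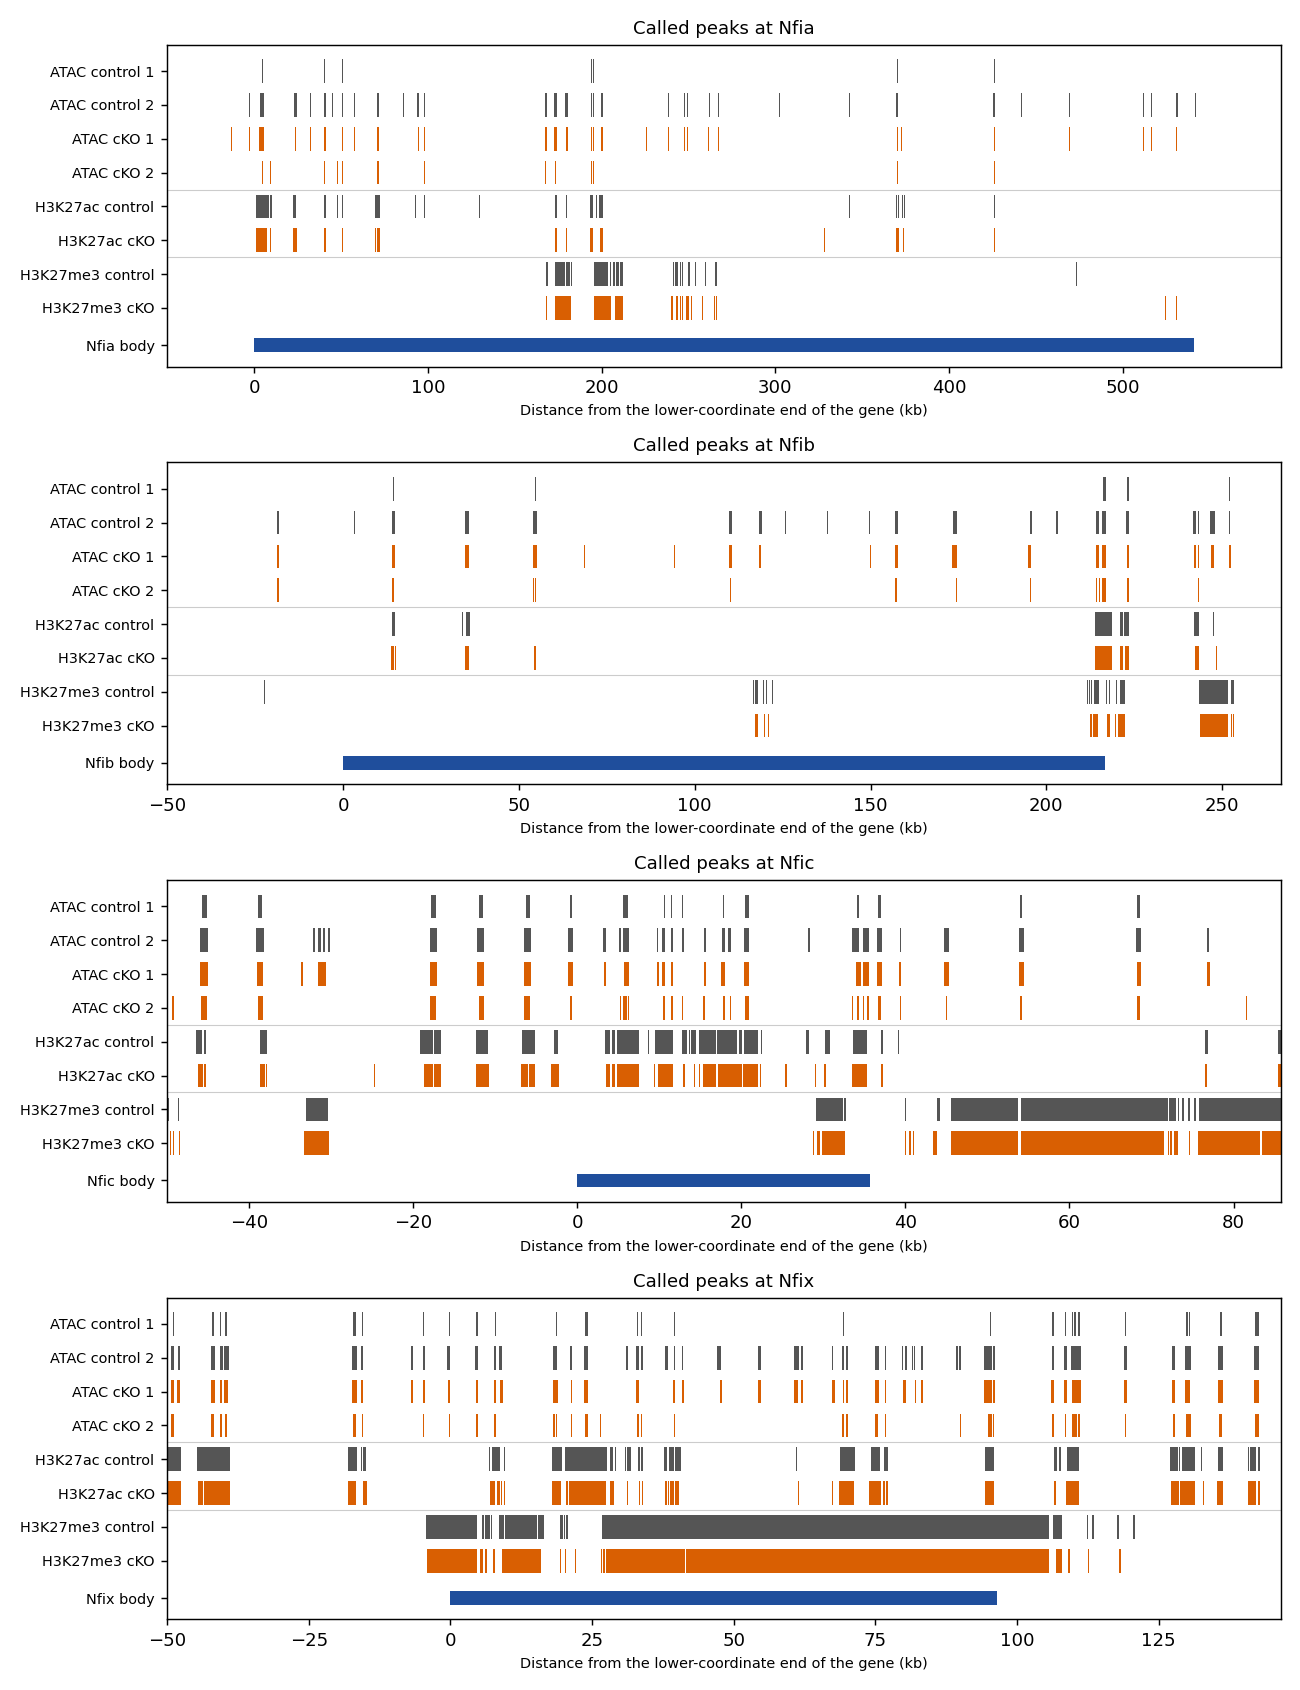
Called peaks at the 4 genes. The horizontal axis is the distance in kb from the lower-coordinate end of each gene, each row is a library (grey control, orange cKO), and the blue bar is the gene body. H3K27me3 covers most of Nfix, lies in clusters inside Nfia, and lies mostly outside the body of Nfic.

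Nfia and Nfib carried Polycomb signal in separate blocks. All H3K27me3 in the Nfia window lay inside the gene, 31648 bases in control and 33490 in cKO, mostly in 3 clusters from about 168 to 267 kb from its lower end. The cluster nearest the promoter held 10298 bases in control and 9713 in cKO, the middle one 13544 and 14270, and the far one 6683 and 8371. A cKO peak of 313 bp (chromosome 4, 97582453 to 97582765) lay near the Nfia promoter where control had none. At Nfib the widest H3K27me3 peak was 8397 bp in control and 7828 bp in cKO, 26.8 kb and 27.1 kb beyond the upper end of the gene.

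At the upper end of Nfib the marks met. An H3K27ac peak of 4846 bp in control (82503879 to 82508724) and 4903 bp in cKO spanned it, ATAC peaks lay there in all 4 lists, and H3K27me3 peaks lay within 1 kb in both genotypes. The widest H3K27ac peak of Nfia was 6769 bp in control (97579105 to 97585873) and 6331 bp in cKO, over the listed promoter.

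Nfic differed from Nfix in where its Polycomb signal lay. H3K27me3 covered 32.9% of its window in control and 32.8% in cKO, but only 7.62% and 7.48% of those bases were inside Nfic. The widest peak, 17948 bp in control and 17431 bp in cKO, lay at Celf5, an RNA-binding protein gene. H3K27ac covered 47.3% of the Nfic body in control and 41.4% in cKO. All 14 ATAC regions in the body met H3K27ac in control and 12 did in cKO, and none met H3K27me3.

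Near a gene end, within 1 kb, an ATAC peak lay at 14 of the 16 combinations of gene and list. The exceptions were control 1 and cKO 2 at Nfia, the short lists. An H3K27ac peak lay near an end of all 4 genes in both genotypes, against 61.4% of all genes in each list, and H3K27me3 near an end of Nfib and Nfix in both, against 29.6% in control and 29.1% in cKO. For ATAC the share of all genes was 55.8% and 68.9% in control 1 and 2 and 67.7% and 60.6% in cKO 1 and 2.

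H3K27ac in cKO differed from control by -13.2% to 1.63% at the 4 genes. It covered 27176 bases at Nfia in control and 23596 in cKO, a difference of -13.2% of the control value. At Nfib it covered 11071 and 11251 bases (1.63% more in cKO), at Nfic 25784 and 23010 (-10.8%), and at Nfix 42999 and 40719 (-5.30%). Fewer bases in cKO were thus seen in 3 of 4, where 68.1% of all genes with the mark had fewer. The whole list differed by -6.84%. Relative to the bases covered by its list, the difference was -6.80% at Nfia, 9.09% at Nfib, -4.21% at Nfic and 1.65% at Nfix, so that its sign turned at Nfix.

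H3K27me3 differed by -6.82% to 5.82%. It covered 31648 and 33490 bases at Nfia in control and cKO (5.82% more in cKO), 16104 and 15005 at Nfib (-6.82%), 44716 and 44491 at Nfic (-0.503%) and 100043 and 98032 at Nfix (-2.01%). Fewer bases in cKO were seen in 3 of 4, and in 57.9% of all genes with the mark. The whole list differed by -3.30%, and relative to it the difference was 9.43% at Nfia, -3.65% at Nfib, 2.89% at Nfic and 1.33% at Nfix, with the sign turned at the last pair. No NFI gene passed 1.5-fold for either mark. Of all genes, 2.79% passed it upward and 3.54% downward for H3K27ac, and 7.46% and 10.4% for H3K27me3. With 1 library per group these differences have no replicate check.

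**Figure D2:**
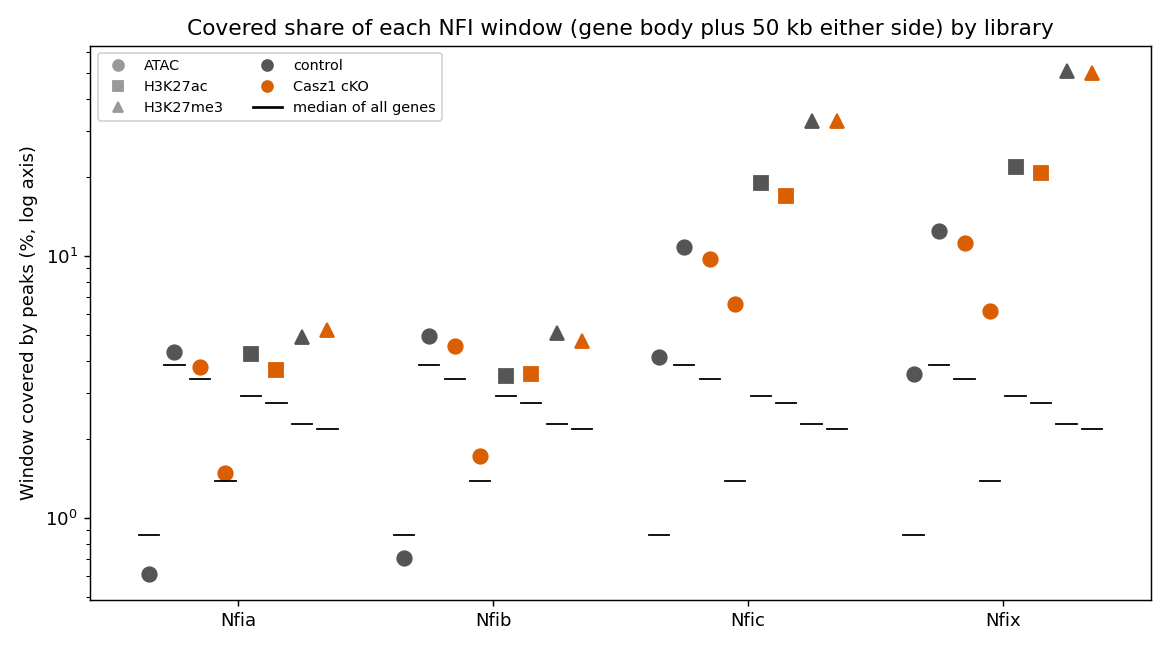
Share of each NFI window covered by peaks, in percent on a log axis, by library. Points are libraries (circles ATAC, squares H3K27ac, triangles H3K27me3; grey control, orange cKO) and black bars the median of all genes; Nfic and Nfix lie above the median for each library, and the ATAC points follow list length rather than genotype.

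Both marks on the same bases were most extensive at Nfix. In control 14093 bases of the Nfix window lay under H3K27ac and H3K27me3 at once, the 11th highest of all genes, and in cKO 12491, the 14th. These were 32.8% and 30.7% of its H3K27ac, against 7.01% and 6.89% over all chromosomes. Nfib had 31.4% and 28.7%, Nfia 15.8% and 15.7%, and Nfic 5.12% and 3.12%. The share was lower in cKO at all 4 genes and over all chromosomes. The ranks count bases without scaling to window length, which was 196527 bp at Nfix against a median of 117322 bp for all genes. On the same count in control Nfia was the 190th, Nfib the 322nd and Nfic the 2145th. The marks came from separate libraries of mixed cells, so shared bases may belong to different cells.

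**Figure D3:**
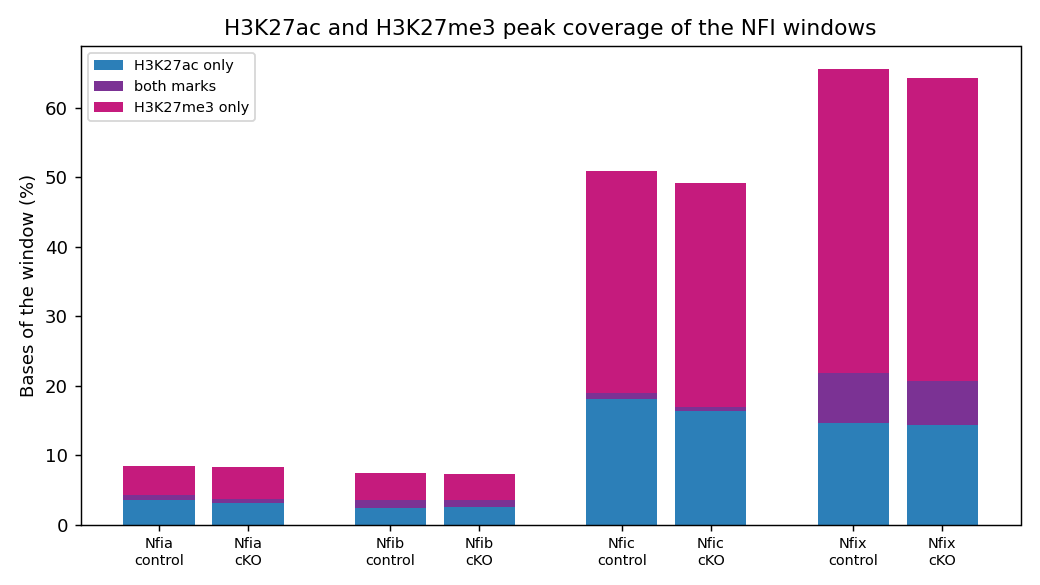
Bases of each NFI window under H3K27ac alone, both marks or H3K27me3 alone, as a percent of the window, in the control and the cKO library of each mark. Nfix has the most bases under both marks, and the bars of the genotypes are nearly alike at each gene.

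ATAC coverage of the windows followed the length of the list. Peaks covered 3908 and 27536 bases at Nfia in control 1 and 2, and 24182 and 9542 in cKO 1 and 2. At Nfib they covered 2229 and 15671 bases in control and 14346 and 5477 in cKO. At Nfic the values were 5622 and 14743 against 13292 and 8911 bases, and at Nfix 6975 and 24450 against 22158 and 12182. Control 2 exceeded cKO 1, and cKO 2 exceeded control 1, at all 4 genes, an order that 83.2% of all genes share, so that the genotypes overlapped at every NFI gene.

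The means did not separate the genotypes. At Nfia the mean was 15722 ± 16707.5 bases in control and 16862 ± 10352 in cKO (SD, n = 2 each, exact permutation test, two-sided p = 1). The cKO means were higher by 961.5 bases at Nfib, 919 at Nfic and 1457.5 at Nfix, with SDs in control of 9505, 6450 and 12357 bases (n = 2 each, exact p = 1 for each, and 1 after adjustment over the 4 genes). The smallest p that 2 libraries against 2 can give is 0.333, so the test could not pass 0.05. Without control 1, or without cKO 1, the difference was below 0 at all 4 genes (from -10674 bases at Nfia to -1271.5 at Nfic).

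Divided by the Mb that each list covers, the bases at Nfia and Nfib were higher in both cKO libraries than in both control ones. Nfia had 329.9 and 451 bases per Mb in control 1 and 2, against 459 and 477 in cKO 1 and 2. Nfib had 188 and 257 against 272 and 274. Their means were 390.5 ± 85.7 and 468 ± 12.7 at Nfia, and 222 ± 48.5 and 273 ± 1.04 at Nfib (SD, n = 2 each, exact permutation p = 0.333 for each, 0.667 adjusted over the 4 genes). Of all genes 5.39% show such an order on this scale, and of those with windows at least as long as the shortest NFI window 6.04%. The reverse order was held by 4.29% and 5.53%. With each list held to the number of peaks in the shortest, Nfia and Nfib did not separate the genotypes (cKO minus control 1165 and 482.5 bases). On that setting Nfic did (2070.5 bases, exact permutation p = 0.333, the smallest possible). Which gene separated the genotypes thus depended on how list length was handled.

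On the scale of bases per Mb the groups overlapped at Nfic and Nfix. Nfic had 475 and 242 in control and 252 and 445 in cKO, and Nfix 589 and 401 against 421 and 609. The short lists, control 1 and cKO 2, were the high ones at both. At Nfic and Nfix the windows were also among the most covered of all genes, above 98.2% and 98.1% of genes in control 1 and 2 at Nfic and above 96.4% and 99.4% at Nfix. Nfia and Nfib lay near the middle, above 39.7% and 55.7% of genes at Nfia and above 43.7% and 63.2% at Nfib in the same libraries. These ranks describe whole windows, which reach 8 other genes each at Nfic and Nfix. In control 1 and 2, 32.2% and 39.5% of the ATAC bases at Nfic lay in its body, and 27.3% and 52.3% at Nfix. At Nfia 97.0% and 93.9% did, and at Nfib 51.5% and 69.3%. The part of the other genes in the ranks was not tested.

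Merged over the 4 lists, the windows held 155 ATAC regions, 49 at Nfia, 24 at Nfib, 32 at Nfic and 50 at Nfix. Of these 62, or 40.0%, were called in all 4 lists, against 28.2% of 118718 regions on all chromosomes. By gene the count was 16 at Nfia, 7 at Nfib, 15 at Nfic and 24 at Nfix. A further 32 were called in the long lists alone, control 2 and cKO 1, and 28 in all but control 1. These were 20.6% and 18.1% of the 155, against 28.0% and 14.9% of regions on all chromosomes. Regions in all 4 lists had a median width of 720.5 bp and the others 397 bp. The 62 became 34 when each list was held to the number of peaks in the shortest, and 22 when peaks had to be at least 300 bp wide.

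The widest of them lay up to 3.68 kb from the nearest gene end. Those at Nfia (3.68 kb) and Nfic (1.20 kb) were outside the 1 kb limit used above. At Nfia a region of 1870 bp (97581747 to 97583616) held peaks of 641 and 1870 bases in control 1 and 2 and 1804 and 501 in cKO 1 and 2. The peaks of the long lists reached the listed start, and those of the short lists did not. At Nfib a region of 1318 bp (82505941 to 82507258) held 1040 and 1287 bases in control and 1311 and 1154 in cKO, the most even of these 4 regions. At Nfic a region of 1043 bp (81429678 to 81430720) held 159 and 798 against 588 and 390. The widest in the Nfix window, 1688 bp, lay at an end of Dand5 and held 639 and 1688 bases against 1607 and 1087. The widest in the Nfix body, 1373 bp (84798965 to 84800337), held 111 and 1318 against 1258 and 769 and met both marks in both genotypes.

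A region open in both cKO lists and in no control list was found at Nfia alone, 1 in the 4 windows, and 0 were found in the other direction. Of all genes 2.19% hold a cKO-only region in the window and 1.44% a control-only one, and of genes with windows at least as long as the shortest NFI window 3.36% and 1.78%. The Nfia region (chromosome 4, 97587515 to 97587798) consisted of peaks of 209 bp in cKO 1 and 233 bp in cKO 2, and the nearest control peaks were 4.04 kb away in control 1 and 3.90 kb in control 2. H3K27ac lay over it in both genotypes, with peaks of 475 bp in control and 533 bp in cKO. It was not called when each list was held to the number of peaks in the shortest, and without control 2 the number of cKO-only regions became 29. Without cKO 1, or without cKO 2, it became 6, and without control 1 there were 18 control-only regions.

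Histone marks over the ATAC regions differed between genes and with the number of lists. Of the 62 regions in all 4 lists, 77.4% met control H3K27ac and 24.2% control H3K27me3, against 70.1% and 15.6% of such regions on all chromosomes. Of the other 93, 38.7% met H3K27ac and 35.5% H3K27me3, against 23.7% and 11.9%. Nfix supplied much of the latter: 21 of its 26 regions in fewer lists met H3K27me3. At Nfib 13 of 17 such regions met neither mark, and at Nfia 18 of 33. The cKO marks gave 80.6% and 27.4% for the 62 regions and 36.6% for each mark over the 93. Wider regions meet a peak more easily, and no test was made. Marks and ATAC came from different stages and cells, so a shared position may not be a shared state.

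**Figure D4:**
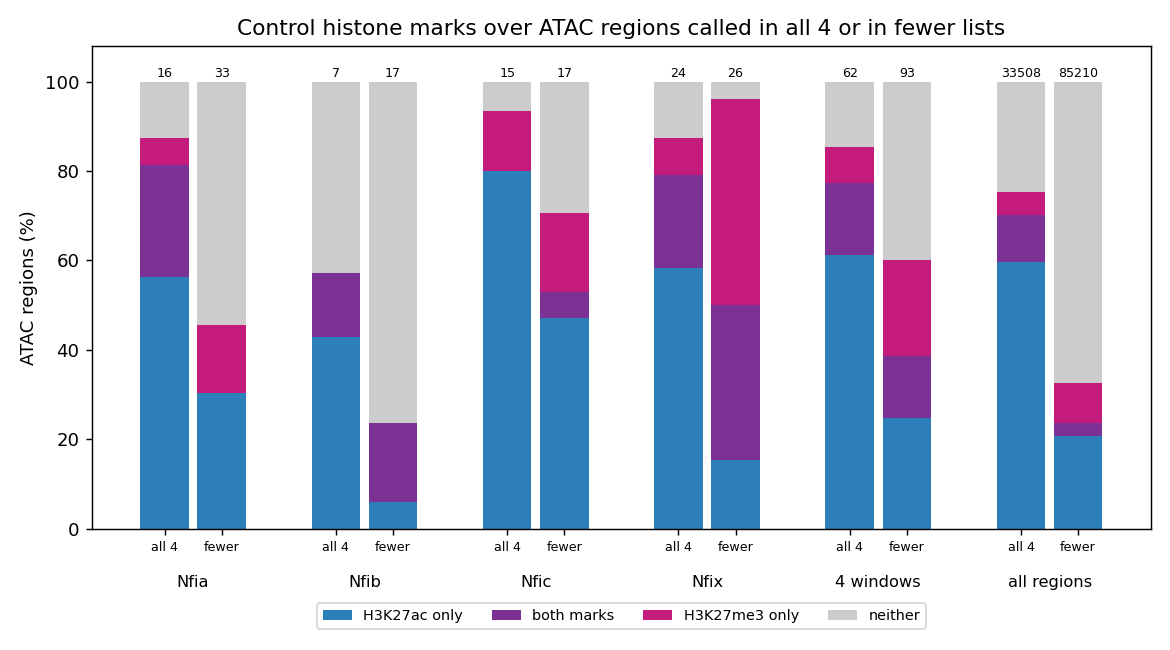
Control histone marks over ATAC regions called in all 4 lists or in fewer, as a percent of the regions, whose number stands above each bar. Regions in fewer lists mostly lie under H3K27me3 at Nfix and under neither mark at Nfia and Nfib.

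Histone peaks present in a single genotype were small. At Nfia 12 of 34 control H3K27ac peaks had no cKO peak over them (35.3%, exact Clopper-Pearson 95% interval 19.7% to 53.5%), and 4 of 26 cKO peaks no control peak (15.4%, 4.36% to 34.9%), against 31.1% and 30.9% over all chromosomes. The intervals overlap and cover counting error only. The order was the opposite at Nfib, with 2 of 9 control peaks and 4 of 12 cKO peaks unmatched, and the counts were 5 of 28 and 4 of 30 at Nfic and 6 of 35 and 4 of 36 at Nfix. For H3K27me3 they were 12 of 38 and 15 of 38 at Nfia, 5 of 16 and 2 of 15 at Nfib, 4 of 15 and 6 of 20 at Nfic, and 5 of 17 and 5 of 16 at Nfix. Over all chromosomes 35.2% of control and 30.9% of cKO H3K27me3 peaks were unmatched. The unmatched H3K27ac peaks of Nfia had a median width of 198 bp in control and 181 bp in cKO, against 735 bp and 474 bp for the matched. Over all chromosomes the medians were alike, 192 bp and 165 bp against 681 bp and 549 bp. A narrow peak meets another less easily, so the small width is not particular to NFI genes. The widest unmatched peak in the family was a cKO H3K27ac peak of 624 bp inside Nfia (97906207 to 97906830). At the other genes the widest unmatched H3K27ac peak was 315 bp in control and 160 bp in cKO at Nfib, 307 and 145 bp at Nfic, and 266 and 257 bp at Nfix. For H3K27me3 the widest unmatched peak was 414 and 383 bp at Nfia, 267 and 206 bp at Nfib, 243 and 251 bp at Nfic, and 406 and 394 bp at Nfix.

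The genes most alike in covered share over the 8 lists were found by distance on a log2 scale relative to each list's mean coverage. Nfia was nearest to Epas1 (distance 0.29), Prkcb (0.33) and Ucp2 (0.42), and Nfib to Spx (0.39), Rufy4 (0.42) and Adcy1 (0.43). Nfic was nearest to Tmem203 (0.37), Wdr18 (0.38) and Sfxn3 (0.44), and Nfix to Ssna1 (0.76), Sfxn3 (0.79) and Anapc2 (0.83). Tmem203, Ssna1 and Anapc2 lie together on chromosome 2 (25255439 to 25285916). Their windows overlap, so they are not separate observations. Within the family Nfia and Nfib were 0.52 apart, each the 8th nearest gene to the other, while Nfic and Nfix were 1.00 apart and 6.06 or more from Nfia and Nfib.

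Other genes of the late progenitor programme gave context. Of 16 late progenitor and Müller glia genes, 14 had fewer H3K27ac bases in cKO (68.1% of all genes did), 0 passed 1.5-fold, and the median difference was -1.17 percentage points of the window against -0.16 for all genes. Points depend on how much of a window the mark covers, so they do not compare relative change. Over these windows H3K27ac summed to 319945 bases in control and 289891 in cKO. The sums were 158444 and 138703 for the early progenitor genes below, and 82763 and 76362 for the bipolar genes. The whole list differed by -6.84%, and the control median of all genes with the mark in both was 5212 bases. H3K27me3 was present at 10 of the 16, with fewer bases in cKO at 4 and more at 6, where 57.9% of all genes with the mark had fewer. Of these Id1, an inhibitor of bHLH factors, had 0 bases in control and 296 in cKO, and Glul, the glutamine synthetase of Müller glia, 293 and 0. Of 11 early progenitor genes, 9 had fewer H3K27ac bases in cKO, with none past 1.5-fold and a median of -0.64 points. For H3K27me3, 4 of the 11 had fewer bases in cKO and 7 more, and Sfrp2, a secreted Wnt modulator, had 1136 bases of H3K27me3 in control and 2683 in cKO. Of 11 bipolar genes, 9 had fewer H3K27ac bases, and the median of -0.21 points was near that of all genes. For H3K27me3, 6 had fewer bases in cKO and 4 more. For H3K27ac 3 were past 1.5-fold lower, where 3.54% of all genes were: Trpm1, the channel of ON bipolar cells (4418 bases in control, 2622 in cKO), Bhlhe23, a bHLH factor (1291 and 603), and Cabp5, a calcium-binding protein gene (730 and 467).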

How the data were processed

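ATAC-seq and ChIP-seq peak lists of 8 of 10 samples were used; the input samples were not analysed here. Per the submitters' processing notes, Bowtie2, deepTools, MACS2 and the build mm10 were used; for caller settings, duplicate removal, Tn5 read shifting and any use of input the sources used here say nothing. The deposited lists give positions, and the score column that the authors deposited is 0 throughout, so depth and peak height are unknown and list length may reflect sequencing depth. Peak calling can break broad H3K27me3 domains into pieces, so covered bases were counted beside peaks. Only chromosomes 1 to 19 and X were used.

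Gene positions came from RefSeq GRCm38.p6 (21631 protein-coding genes), without exons, so regions were not placed in exons, introns or UTRs. Promoter sequences came from the RefSeq promoter table, which matched 3 of the 4 genes. ATAC peaks sharing 1 bp were merged into regions. Covered bases per window were compared by exact permutation over the libraries, and 1.5-fold was the limit for the histone marks, with 1 library per group. Groups and replicate numbers come from the sample titles. Same-numbered ATAC libraries had deviations that correlated at -0.274, and the labels, which give separate days for the experiments, do not tie days to numbers, so numbers were not used as a block. Libraries are not stated to come from separate animals, so their spread may be technical. Likeness used log2 of covered share over the list's mean plus 0.1, among genes with windows of at least 100 kb. The genes, regions and nearest genes named follow a written rule (all members, genotype-only regions, widest shared region and widest peaks per gene, 3 nearest genes, and up to 3 list genes per direction past 1.5-fold). The 313 bp Nfia peak and the clusters were picked after their values were seen. A gene of the neural retina and bipolar lists is not reported here and was left out of their counts. Members and lists were chosen with earlier results of these data known. Calculations (Python 3.11.15, numpy 2.4.6, scipy 1.17.1, matplotlib 3.10.9) were tested on simulated data. Alternatives were other windows, widths, list lengths, scalings, overlaps, left-out libraries and replicate pairing.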

Additional observations from a re-analysis of the deposited data

How the results depend on the processing

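Of the alternatives run, those that moved a count by over 1.5 times concerned the ATAC lists. Differences were reversed for the ATAC lists and, at some genes, for the histone marks. The cKO-only regions in the 4 windows numbered 0 with lists of equal length and from 1 to 29 when a library was left out (29 without control 2, 6 without cKO 1, 6 without cKO 2). With peaks of at least 300 bp the count was also 1, of another region, since the Nfia peaks are 209 and 233 bp wide. The control-only regions, 0 with all libraries, ranged from 0 to 18 (18 without control 1, 2 without cKO 2). The 62 regions in all 4 lists became 34 in gene bodies alone, 22 with peaks of at least 300 bp, 34 with lists of equal length, and 20 when the greater part of a region had to be covered. The cKO minus control difference of ATAC bases turned to -606.5 at Nfia and -92 at Nfib with peaks of at least 300 bp, and to -9.20 bases per Mb of list coverage at Nfic. Without a library it ranged from -10674 to 12954 at Nfia, -5759.5 to 7682.5 at Nfib, -3641.5 to 5479.5 at Nfic and -7280 to 10195 at Nfix, and was below 0 at each without control 1 or without cKO 1. With the replicate number as a block the differences were 1140, 961.5, 919 and 1457.5 bases with p = 1 by exact sign flips, and 1 cKO-only and 0 control-only regions, as without it. Crossed pairing, added after seeing the data, also gave 1 and 0. Leaving out the bases of other genes, likewise added, reversed no ATAC difference. The cKO share of histone bases stayed between 43.6% and 53.04% over 7 alternatives for each gene and mark, crossing the even split at Nfib and Nfix for H3K27ac and at Nfic and Nfix for H3K27me3. The direction of the difference at those genes thus depended on the setting. The causes were not tested. Peak lists without scores allow no stricter threshold, and depth is unknown.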
